A study of Mus musculus with 108 samples.

Results

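The data concern 10 genes of the RGS family (regulators of G-protein signalling) in the brains of Cul3+/- mice, with Rgs4 at the centre. The members are Rgs2, Rgs4, Rgs5, Rgs6, Rgs7, Rgs8, Rgs9, Rgs10, Rgs14 and Rgs16, found by matching the Ensembl identifiers of the count table to these symbols, and all 10 were present among its 53465 genes. Rgs4 was chosen from values of these data, namely its difference between genotypes and between regions at P35, so its P35 values and the P35 genotype differences of every member are given as a description, without a test. Cortex (CX), cerebellum (CB) and, as the remaining region, hippocampus (HIP) were sequenced in 6 wild type (WT) and 6 Cul3+/- (HET) mice per period, before birth (E17.5), after it (P7) and in adults (P35), each mouse giving all 3 regions. HET mice carry a germline frameshift insertion in exon 6 of 1 copy of Cul3, the scaffold of a family of ubiquitin ligases, in every cell. The line was made with CRISPR and bred to C57BL/6N, and the strain is written C56Bl/6N in the labels of both genotypes. The labels do not state sex.

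For 2 of the P35 mice the sample labels and the sample table of the study give opposite genotypes. Their 6 libraries were left out of the main comparisons, and their Cul3 levels, given at the end, went with the sample labels. This left 102 libraries of 34 mice, with 6 mice per genotype at E17.5 and P7 and 5 at P35. Library totals ran from 15126114 to 44411282 expected counts (median 32663960), and no pair of replicates was within the sampling noise of each other. Levels are CPM (counts relative to the library total after TMM scaling), and n is the number of mice. Mouse numbers are those of the sample titles within a period, region and genotype. At P7 and P35 the same number can name different mice in different regions. In the libraries used, Cul3 was lower in HET mice in all 9 combinations of period and region without overlap, and over all of them WT libraries held 161 to 218 CPM and HET libraries 85.5 to 125 CPM. Marker genes went with the labelled region: the mean log2 CPM of 7 Purkinje cell markers was 9.21 in P35 CB of WT mice and 3.57 in P35 CX, and that of 6 cortical projection neuron markers was 6.81 in P35 CX and 1.77 in P35 CB. Choroid plexus markers varied widely between libraries of the same group, from 10.1 to 2948 summed CPM in P35 CB of WT mice.

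RGS proteins speed up the hydrolysis of GTP by G alpha subunits and so shorten the signal of G-protein-coupled receptors. The small R4 proteins (here Rgs2, Rgs4, Rgs5, Rgs8 and Rgs16) are little more than the RGS domain with a short N-terminal stretch. The larger R7 proteins (Rgs6, Rgs7 and Rgs9) work as complexes with Gnb5 and a membrane anchor, and the R12 proteins are represented by Rgs10 and Rgs14. Rgs4 acts on Gi/o and Gq in neurons and is known for steep regional differences in the brain. Rgs5 is a marker of pericytes and other mural cells, Rgs8 of Purkinje cells, Rgs10 of microglia, Rgs14 of the CA2 field of the hippocampus, and Rgs9 of the striatum. In bulk tissue, fewer cells of a type and less RNA per cell cannot be told apart.

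The R4 members differ at the start of the protein, where a cysteine right after the initiator methionine lets the Arg branch of the N-degron pathway (Ado, Ate1 and the Ubr ligases) act on the protein once the methionine is removed. The first 30 coding bases, 5′ to 3′ on the coding strand, are shown for the 5 R4 members to mark which of them have it (GENCODE M21 transcripts, build GRCm38). The capitals mark the start codon and the second codon.
Rgs4: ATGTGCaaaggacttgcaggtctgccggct
Rgs5: ATGTGTaagggactggcagctctgccgcac
Rgs16: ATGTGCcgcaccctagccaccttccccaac
Rgs2: ATGCAAagtgccatgttcctggctgtccag
Rgs8: ATGGCTgccttactgatgccacgcaggaac
The second codon encodes cysteine in Rgs4, Rgs5 and Rgs16 and another amino acid in Rgs2 and Rgs8. None of the 5 other members has a cysteine codon there. The coding regions of the R4 members run from 540 bases (Rgs8) to 633 bases (Rgs2), against 1407 to 1470 bases for the R7 members. The pathway acts on the protein, and the values below are of RNA.

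The R4 genes lie in pairs on chromosome 1. Rgs4 is at chr1:169741477-169747642 on the minus strand and Rgs5 at chr1:169655501-169695813 on the plus strand, and Rgs8 (chr1:153653025-153700323) and Rgs16 (chr1:153740349-153745468) lie on the plus strand of another stretch. Rgs2 is at chr1:143999338-144004161 on the minus strand, and Rgs7 also lies on chromosome 1. Over the 9 WT group means of log2 CPM, Pearson's r was -0.0483 for Rgs4 and Rgs5 and 0.00173 for Rgs8 and Rgs16. These are descriptions over 9 groups whose 3 regions come from the same mice. Genes on the same strand overlap Rgs6, Rgs7 and Rgs10 in the annotation, so reads there may have been split between them. Genes on the opposite strand overlap Rgs6, Rgs8 and Rgs16, and the library kit kept the strand.

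Rgs4 was highest in adult cortex and lowest in adult cerebellum. Its mean CPM in WT mice was 743 ± 82.3 (SD, n = 5) in P35 CX, 273 ± 36.01 (n = 6) in P7 CX, 199.6 ± 15.1 (n = 5) in P35 HIP, 166 ± 16.3 (n = 6) in P7 HIP and 139 ± 19.2 (n = 6) in E17.5 CB. It was 60.0 ± 14.1 (n = 6) in E17.5 HIP, 42.6 ± 7.89 (n = 6) in E17.5 CX, 25.2 ± 3.11 (n = 6) in P7 CB and 17.6 ± 0.807 (n = 5) in P35 CB. The first and the last of these groups were 42.2-fold apart. In this order P35 CX stood above every other group and E17.5 CB above E17.5 HIP without overlap, and E17.5 CX stood above P7 CB and P7 CB above P35 CB. The ranges of P7 CX and P35 HIP, of P35 HIP and P7 HIP, of P7 HIP and E17.5 CB, and of E17.5 HIP and E17.5 CX overlapped.

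**Figure D1:**
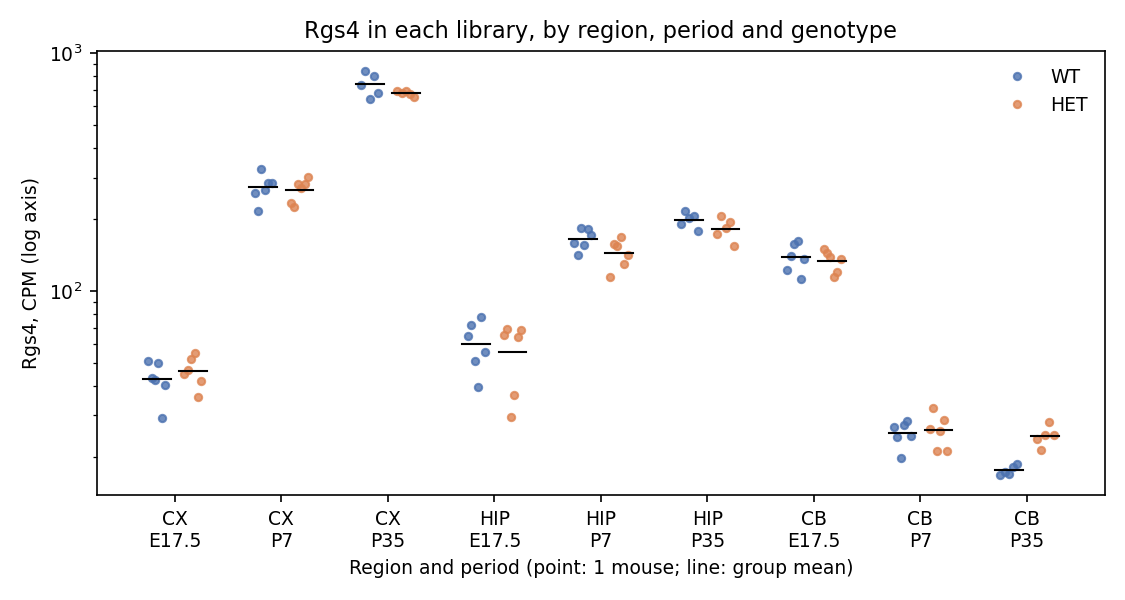
Rgs4 level (CPM, log axis) in each used library by region and period, with WT in blue, HET in orange and a line at the mean of each group. The means of CX and HIP go up from E17.5 to P35 while that of CB goes down, and in P35 CB the 5 HET libraries (21.5 to 28.2 CPM) lie above the 5 WT libraries (16.8 to 18.7 CPM).

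The region with the highest Rgs4 level changed from CB at E17.5 to CX at P7. At E17.5 the single WT values were 113 to 163 CPM in CB against 39.5 to 77.5 CPM in HIP and 29.1 to 51.02 CPM in CX, so all CB libraries stood above the forebrain libraries. At P7 they were 19.8 to 28.5 CPM in CB against 217 to 326 CPM in CX and 142 to 184 CPM in HIP. In edgeR's quasi-likelihood test within WT mice, with mouse as a block, Rgs4 was 3.33-fold lower in CX than in CB at E17.5 (log2 difference -1.73, SE 0.169, adjusted p = 1.54e-06) and 10.4-fold higher at P7 (3.38, SE 0.0965, adjusted p = 8.64e-14). HIP and CB differed 2.30-fold at E17.5 and 6.23-fold at P7 in the same directions. The HET mice, which were not used in that fit, gave CX differences from CB of -1.58 (SE 0.193) at E17.5 and 3.29 (SE 0.130) at P7 on the log2 scale.

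Followed over time within a region of WT mice, Rgs4 rose 6.20-fold from E17.5 to P7 in CX (log2 change 2.63, SE 0.127, adjusted p = 3.61e-12) and 2.73-fold in HIP. In CB it fell 5.56-fold between E17.5 and P7 (log2 change -2.47, SE 0.0941, adjusted p = 3.52e-13). The steps from P7 to P35 rest on the values that chose Rgs4 and are given without a test: its level at P35 was 2.78-fold that at P7 in CX, 1.23-fold in HIP and, in the other direction, 1.42-fold lower in CB (log2 change -0.51, SE 0.0974). In HET mice the P7 to P35 log2 change in CB was -0.06 (SE 0.107), and the difference between genotypes was likewise not tested. The E17.5 to P7 and the P7 to P35 changes share the P7 libraries. These adjusted p-values come from edgeR's quasi-likelihood test over all genes, and a change was called at an adjusted p of at most 0.1 together with a fold of at least 2.

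**Figure D2:**
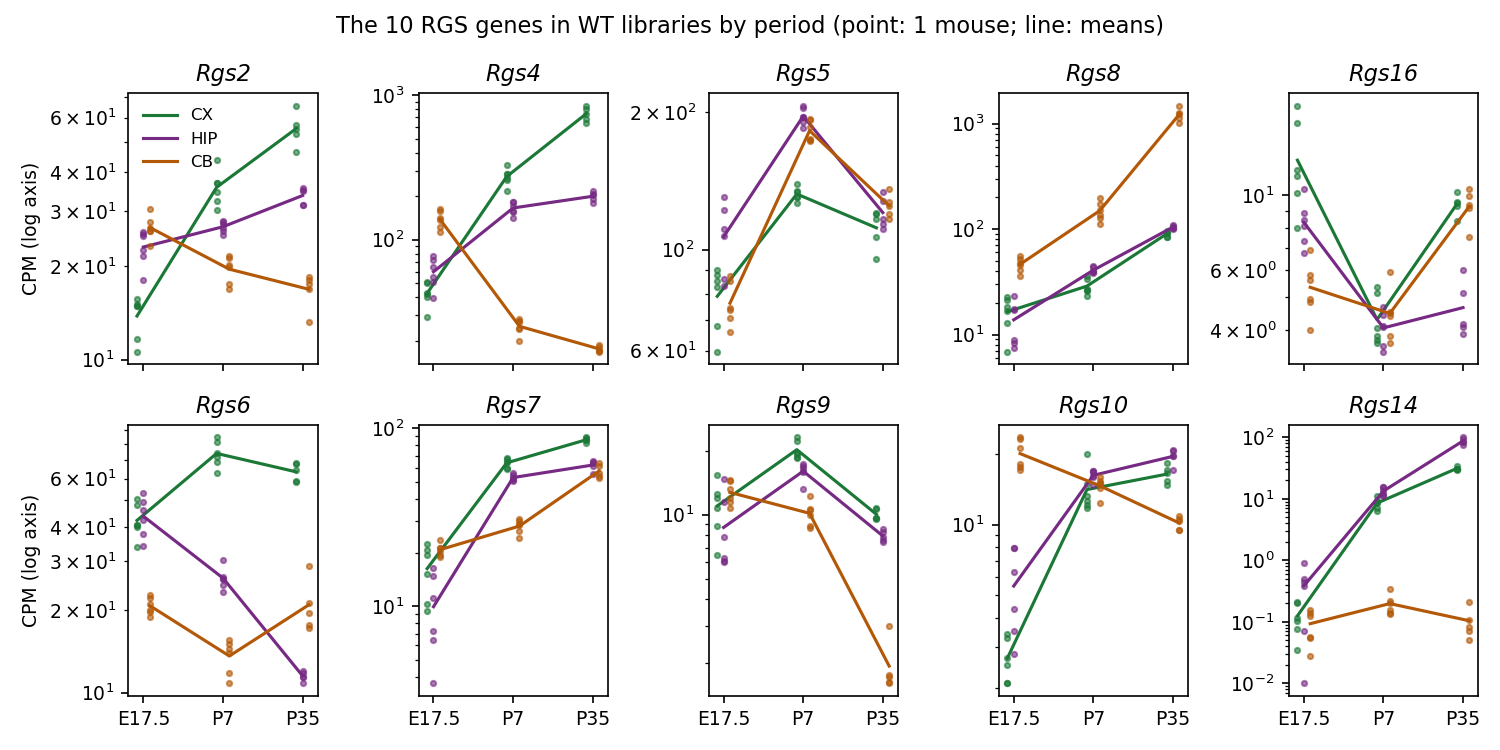
Levels (CPM, log axis, scale of each panel its own) of the 10 genes at the 3 periods in WT libraries, with CX in green, HIP in purple and CB in brown, points for mice and lines through the means. Rgs4 in CB runs against CX and HIP, Rgs8 climbs most in CB (46.3 to 1221 CPM) and Rgs14 climbs in CX and HIP and stays under 1 CPM in CB; libraries with no Rgs14 read are drawn at the lower edge.

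To place Rgs4 among its relatives, levels were divided by the length of each gene's exons (CPM per kb of exon, from the union of its GENCODE M21 exons). In P35 CX of WT mice Rgs4 was first of the 10 members at 239.7 CPM per kb, ahead of Rgs5 at 24.6 CPM per kb. It was also first at 88.2 CPM per kb in P7 CX, 53.5 in P7 HIP, 64.4 in P35 HIP and 44.8 in E17.5 CB. Rgs5 was first in the other E17.5 regions (17.4 CPM per kb in CX and 23.5 in HIP) and in P7 CB (40.1). In P35 CB Rgs8 was first at 126.6 CPM per kb, and Rgs4 had rank 5 at 5.68.

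Rgs2, an R4 protein that prefers Gq, had the pattern closest to that of Rgs4 among the members (r = 0.925 over the 9 WT group means). Its WT means were 13.8, 35.8 and 55.3 CPM in CX at E17.5, P7 and P35, and 26.6, 19.5 and 16.8 CPM in CB. It rose 2.51-fold in CX between E17.5 and P7 (log2 change 1.33, SE 0.113, adjusted p = 5e-09, edgeR's quasi-likelihood test), while in CB it was 1.38-fold lower at P7, under 2-fold. At P35 it was 3.30-fold higher in CX than in CB, with WT values of 46.5 to 65.5 CPM and 13.3 to 18.5 CPM. The contrast of HIP with CB at P35 stood just under the 2-fold threshold (1.99-fold).

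Rgs5 varied least over groups among the 10 members, 2.57-fold between its highest and its lowest WT mean. It peaked at P7 with 196 ± 8.18 CPM in HIP, 182 ± 9.63 CPM in CB and 132 ± 4.38 CPM in CX (SD, n = 6), against 76.3 to 107 CPM at E17.5 and 112 to 125 CPM at P35 in the group means. It rose 2.37-fold from E17.5 to P7 in CB (adjusted p = 1.22e-11, edgeR), and was 1.62-fold higher in CX and 1.82-fold higher in HIP, under the 2-fold threshold. Its chromosomal neighbour Rgs4 had fallen in CB over the same interval.

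Rgs8, which acts mainly on Gi/o and marks Purkinje cells, rose steeply in the cerebellum. Its WT values in CB were 35.98 to 55.5 CPM at E17.5, 113 to 197 CPM at P7 and 1022 to 1472 CPM at P35, without overlap between periods. It rose 3.18-fold and then 8.26-fold (log2 changes 1.67, SE 0.134, and 3.05, SE 0.142, adjusted p = 4.16e-09 and 5.07e-13, edgeR). CX and HIP rose as well between P7 and P35, 3.20-fold and 2.60-fold, to 89.8 and 104 CPM. At every period Rgs8 was called higher in CB than in CX and in HIP, by 2.95-fold and 3.49-fold at E17.5, 5.33-fold and 3.79-fold at P7, and 13.5-fold and 11.7-fold at P35.

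Rgs16, the remaining R4 member, had its lowest mean of each region at P7. Its WT means in CX were 12.7 ± 3.89 CPM (n = 6) at E17.5, 4.29 ± 0.749 CPM (n = 6) at P7 and 9.39 ± 0.664 CPM (n = 5) at P35, a fall of 3.06-fold and a rise of 2.24-fold (adjusted p = 8.59e-08 and 1.42e-05, edgeR's quasi-likelihood test). In HIP it fell 2.07-fold to 4.05 CPM at P7 and was 4.65 CPM at P35, and in CB it rose 2.10-fold from P7 to P35. At P35 it was 2.05-fold higher in CX than in HIP and 2.01-fold lower in HIP than in CB, both near the threshold and both under 2-fold in HET mice.

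Of the R7 members, Rgs7, the most widely used of them in the brain had higher means at each period than at the one before in all 3 regions. Its WT means went from 16.2 to 63.9 and 86.2 CPM in CX, from 9.91 to 52.8 and 62.1 CPM in HIP and from 20.7 to 28.2 and 57.5 CPM in CB. The rise from E17.5 to P7 was called in CX (3.81-fold) and HIP (5.25-fold), and that from P7 to P35 in CB (2.06-fold). Rgs6, which is known for its part in the parasympathetic control of the heart, went different ways in the forebrain: in CX its WT means were 42.3, 74.1 and 63.5 CPM, and in HIP 43.8, 26.1 and 11.5 CPM. CX and HIP thus went from overlapping ranges at E17.5 (33.8 to 50.4 and 34.2 to 53.0 CPM) to a 5.56-fold difference at P35 (log2 2.47, SE 0.116, adjusted p = 5.83e-09, edgeR with mouse as a block).

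Rgs9, the R7 member of the striatum and of photoreceptors, was low in these regions and fell in adult CB. Its WT means in CB were 12.7, 10.2 and 1.93 CPM at the 3 periods, and the 5 P35 values were 1.60, 1.62, 2.99, 1.75 and 1.71 CPM. The fall from P7 to P35 was 5.25-fold (adjusted p = 5.41e-11, edgeR), against 1.97-fold in CX and 1.99-fold in HIP. The striatum markers Drd1, Drd2 and Gpr6 had means under 1 CPM in P35 CB of WT mice, and in P35 CX, where the 7 markers summed to 109 to 132 CPM, Drd2 alone was under 1 CPM.

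The partners of the R7 proteins were examined as a list of 5 (Gnb5, Rgs7bp, Rgs9bp, Gpr158, Gpr179). From P7 to P35 in CB, 3 rose (Gnb5, Rgs7bp and Gpr158) and 1 fell (Rgs9bp) by the same rule, where 34.3% of all genes passed, and the median log2 change was 1.20, against 0.00944 over all genes tested. Rgs7bp, which anchors R7 complexes at the membrane, went from 33.9 to 90.1 and 356 CPM in CB of WT mice over the 3 periods, and Gpr158, an orphan receptor that binds Rgs7, from 20.1 to 46.0 and 299 CPM. Both rose in CX and HIP too at each step. Rgs9bp, the anchor of Rgs9, was 0.107 CPM in P35 CB.

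Of the R12 members, Rgs14, a scaffold that also binds Ras proteins and is known for CA2, had WT means of 0.384, 13.4 and 87.2 CPM in HIP and 0.125, 8.51 and 31.1 CPM in CX. In CB it stayed at 0.0933, 0.198 and 0.104 CPM, between 1 and 12 reads per library, so that it failed the filter on low counts there in every genotype comparison. At P35 the HIP values of WT mice (75.2 to 99.3 CPM) stood above the CX values (29.2 to 34.0 CPM), a 2.77-fold difference (adjusted p = 1.58e-08, edgeR).

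Rgs10, the shortest member by exon length, was higher in CB than in the forebrain before birth. At E17.5 its WT values were 17.1 to 23.6 CPM in CB against 2.10 to 3.42 CPM in CX, a 7.71-fold difference (log2 -2.95, SE 0.143, adjusted p = 1.76e-09, edgeR). By P7 the regions overlapped, with means of 14.1 CPM in CX, 16.3 CPM in HIP and 14.7 CPM in CB, after rises of 5.08-fold in CX and 2.92-fold in HIP. By P35 CB had the lowest mean, 10.2 CPM, against 16.4 CPM in CX and 19.6 CPM in HIP, differences below 2-fold.

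Counted over members, differences between regions of WT mice past the threshold were most frequent between forebrain and cerebellum. At E17.5, when Rgs14 was not tested, 0 of 9 members differed between CX and HIP, where 12.3% of all genes tested did, 5 of 9 between CX and CB (all genes 19.2%) and 5 of 9 between HIP and CB (14.5%). At P7 the counts were 1 of 10 for CX and HIP (10.7%), 5 of 10 for CX and CB (33%) and 3 of 10 for HIP and CB (27%), and at P35 they were 4 of 10 (11.8%), 6 of 10 (27.4%) and 5 of 10 (27.6%). The P35 counts include Rgs4, which was chosen for its regional values there, and nothing is read from its place in them. In HET mice the counts were 0, 4 and 5 at E17.5, 1, 5 and 3 at P7, and 3, 6 and 4 at P35. Rgs8 passed in all 6 contrasts of WT mice with CB, higher in CB throughout, and Rgs4 in those of E17.5, where it was higher in CB, and of P7, where it was lower. Rgs14, with at most 12 reads in a CB library, passed the filter at P7 and P35 through the forebrain libraries in which it is high, so it could hardly fail to differ from CB. Without it the counts of WT mice against CB were 4 of 9 for CX and 2 of 9 for HIP at P7, and 5 of 9 and 4 of 9 at P35. The HET counts at P7 and P35 include it.

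Between periods, 6 of 10 members passed from E17.5 to P7 in CX (all genes 37.4%) and 6 of 10 in HIP (30.9%), in each region 5 up and Rgs16 down. Rgs14 is among them, with at most 27 reads in an E17.5 library, and passed the filter there through the later libraries in which it is high. Without it 5 of 9 passed in each of these regions. In CB 3 of 9 passed (20.1%), Rgs5 and Rgs8 up and Rgs4 down. From P7 to P35, 4 of 10 passed in CX (21.9%), all up and with Rgs4 counted among them as a description, 3 of 10 in HIP (18.3%), Rgs8 and Rgs14 up and Rgs6 down, and 4 of 9 in CB (34.3%), Rgs7, Rgs8 and Rgs16 up and Rgs9 down. HET mice gave the same genes in 5 of these 6 contrasts, and in HIP from E17.5 to P7 they added Rgs9.

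The members were next followed through the E17.5 mice, because the sample titles of that period hold S2, S3 or S4, with 4 mice of both genotypes in each set. What these stand for is not given in the sources used here. In HIP, 5 of 10 members (Rgs4, Rgs6, Rgs7, Rgs10 and Rgs14) had all 4 S3 libraries below the other 8, as did 9.67% of all genes. In CX it was 3 of 9 members (Rgs2, Rgs7 and Rgs10), against 12.4% of all genes, and in CB 0 of 9, against 5.48%. Rgs7 in CX was 7.31 to 10.3 CPM in the S3 libraries and 15.2 to 22.4 CPM in the others. Rgs4 in HIP was 29.5 to 50.97 CPM in the S3 libraries and 55.7 to 77.5 CPM in the others, a ratio of means of 1.71, and in CX, where the means were 46.3 CPM in S2, 49.8 CPM in S3 and 36.7 CPM in S4, the ranges overlapped. Rgs16 in CX and Rgs8 in CB went the other way, with all 4 S3 libraries above the rest. The same held for 11.2% of all genes in CX and 5.04% in CB. The Rgs16 mean was 18.6 CPM in S3 against 11.5 and 10.2 CPM in S2 and S4. That of Rgs8 was 52.9 CPM against 42.0 and 41.7 CPM. The part of the S3 set in the E17.5 spread was not tested.

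**Figure D3:**
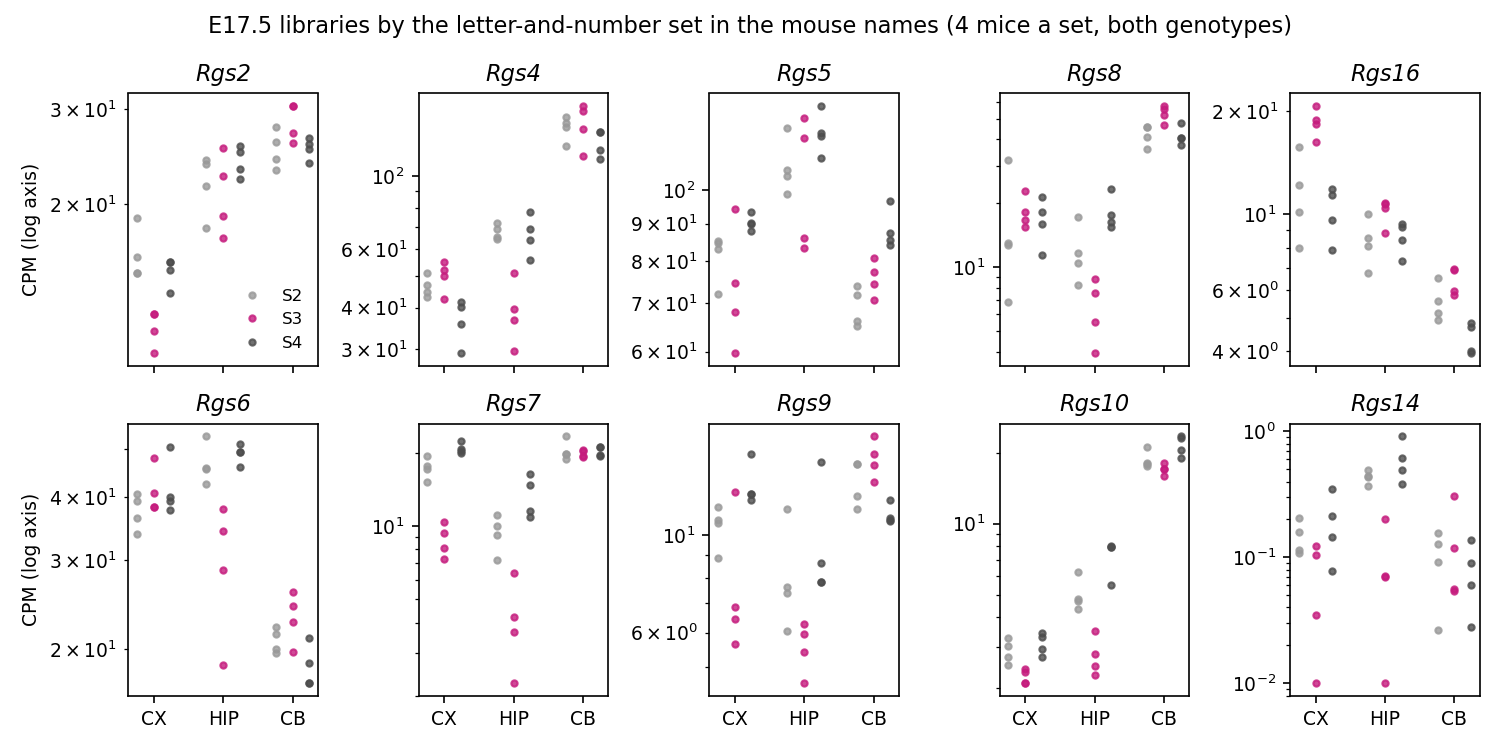
Levels (CPM, log axis, scale of each panel its own) of the 10 genes in the 36 E17.5 libraries, coloured by the set in the mouse name, S2 in light grey, S3 in pink and S4 in dark grey, with both genotypes in each set. In HIP the S3 libraries lie lowest for Rgs4, Rgs6, Rgs7 and Rgs10, and in CB they do not; libraries with no Rgs14 read are drawn at the lower edge.

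Genotype was compared next, at E17.5 and P7 with a test, since the values that chose Rgs4 were those of the P35 mice. The members as a set were chosen with earlier results of these data known. No member was called in any of the 6 datasets at an adjusted p of 0.1 (edgeR's quasi-likelihood test), where Cul3 alone was called among all genes. That is 0.00603% of the genes tested in E17.5 CX, 0.00586% in HIP and 0.00568% in CB, and 0.00566%, 0.00563% and 0.0057% in P7 CX, HIP and CB. At an unadjusted p under 0.05 there was 1 member in 1 dataset, Rgs5 in P7 CX, at 132 ± 4.38 CPM in WT and 144 ± 6.78 CPM in HET mice (SD, n = 6 each), with a log2 fold change of 0.13 (SE 0.0414) and an adjusted p of 0.9 in edgeR. Its ranges, 126 to 139 and 138 to 155 CPM, overlapped slightly.

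For Rgs4 itself the HET minus WT log2 fold changes were 0.10 (SE 0.129) in E17.5 CX, -0.12 (SE 0.223) in HIP and -0.04 (SE 0.0952) in CB, and -0.03 (SE 0.0914), -0.20 (SE 0.0917) and 0.07 (SE 0.111) in P7 CX, HIP and CB. The adjusted p-values were between 0.833 and 0.994 in edgeR's quasi-likelihood test. In P7 CB the WT mice had 26.9, 24.3, 19.8, 27.3, 28.5 and 24.5 CPM and the HET mice 26.3, 32.3, 21.3, 25.7, 28.7 and 21.3 CPM. The P7 CB ranges overlapped over most of their length. The difference with the smallest p, in P7 HIP, was 166 ± 16.3 CPM against 145 ± 19.7 CPM.

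The P35 values, on which Rgs4 was chosen, are given as they stand. Its levels in CB of WT mice were 16.8, 17.4, 16.95, 18.2 and 18.7 CPM and in CB of HET mice 23.9, 21.5, 24.8, 28.2 and 24.9 CPM. The groups did not overlap, and the means of 17.6 ± 0.807 and 24.7 ± 2.40 CPM differed by 0.46 on the log2 scale (SE 0.0744). In CX the WT mice had 738, 842, 644, 806 and 683 CPM and the HET mice 692, 683, 693, 677 and 656 CPM, with overlap, a log2 difference of -0.11 (SE 0.0601), and a smaller spread in HET mice. In HIP the ranges were 178 to 218 and 155 to 206 CPM and the log2 difference -0.12 (SE 0.0706). The library of the left-out mouse labelled WT had 19.6 CPM in CB, that of the mouse labelled HET 22.3 CPM.

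Among the relatives in P35 CB, Rgs10 also did not overlap, with WT values of 10.9, 10.5, 9.52, 10.3 and 9.53 CPM and HET values of 13.1, 11.7, 11.8, 11.4 and 13.2 CPM (log2 difference 0.24, SE 0.0701). In all, 2 of 9 tested members did not overlap between genotypes in P35 CB (all genes 2.64%), and 0 of 10 in P35 CX (0.609%) and in HIP (1.08%), counts from which nothing is read because the choice used this contrast. Rgs2 was 16.8 ± 2.09 CPM in WT and 20.1 ± 2.04 CPM in HET mice (log2 difference 0.23, SE 0.0971), and Rgs5 was 125 ± 7.42 and 143 ± 8.16 CPM (0.18, SE 0.0591). Rgs8 was 1221 ± 169 and 1102 ± 73.1 CPM (-0.17, SE 0.0869), and Rgs9 was 1.93 ± 0.591 and 1.62 ± 0.199 CPM (-0.27, SE 0.191). Rgs16, Rgs6 and Rgs7 differed by 0.09 (SE 0.109), -0.07 (SE 0.128) and -0.04 (SE 0.0632). In CX and HIP the log2 differences of all members lay between -0.12 (Rgs4 in HIP) and 0.12 (Rgs16 in HIP). At an adjusted p of 0.1 only Cul3 was called among all genes in each P35 region (0.00569% in CX, 0.00584% in HIP and 0.00584% in CB).

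**Figure D4:**
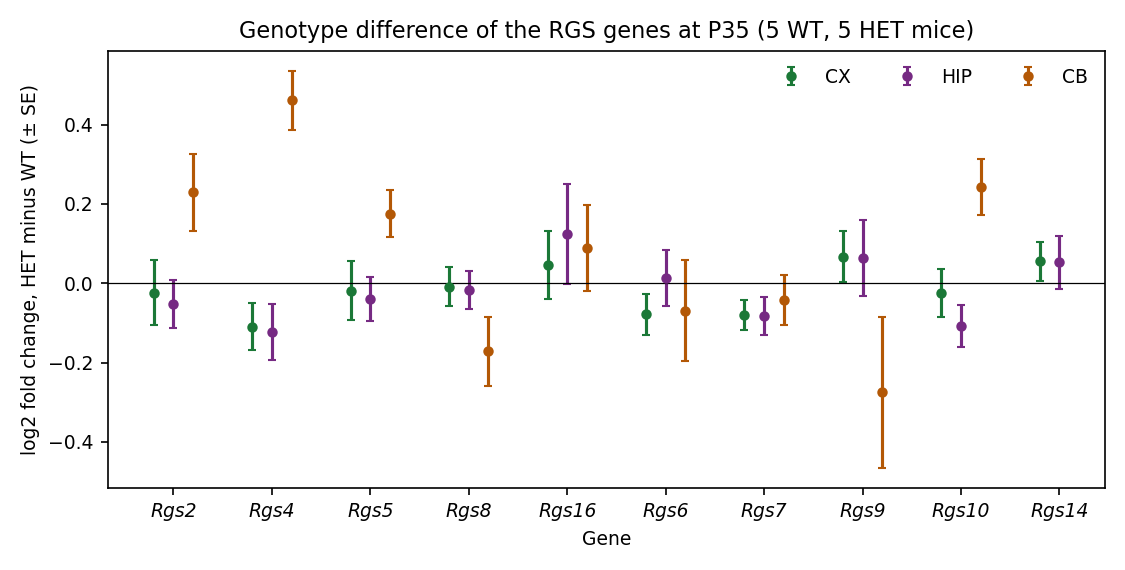
Log2 fold change (HET minus WT, with SE as bars, n = 5 mice per genotype) of each gene at P35, with CX in green, HIP in purple and CB in brown; Rgs14 was not tested in CB. Rgs4 in CB stands highest at 0.46, with Rgs10, Rgs2 and Rgs5 between 0.18 and 0.24, and the CX and HIP values lie between -0.12 and 0.12.

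Marker values of P35 CB are given here beside the difference, most with overlap between genotypes, and their part in it was not tested. The 8 microglia markers, all above 1 CPM in the group means, summed to 104 to 123 CPM in WT and 123 to 148 CPM in HET mice, and their mean log2 CPM was 3.09 to 3.39 and 3.399 to 3.64. The mean log2 CPM of the Purkinje markers was 9.09 to 9.37 in WT and 9.15 to 9.45 in HET mice, and that of 6 granule cell markers was 8.69 to 8.78 and 8.59 to 8.70. Of the 6 cortical projection neuron markers, Tbr1 and Fezf2 were among those that had means under 1 CPM in both genotypes, and the sum of the 6 was 470 to 665 CPM in WT and 435 to 510 CPM in HET mice, with the HET range the lower of the pair. The 8 mural cell markers summed to 132 to 172 CPM in WT and 149 to 167 CPM in HET mice. WT mouse 3 of P35 CB had the highest Rgs6, Rgs8 and Rgs9 (28.9, 1472 and 2.99 CPM) and the lowest Rgs2 (13.3 CPM) of its group.

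Whether a genotype difference varied between regions was tested in the mice of the earlier periods, with all libraries of a period, mouse as a block and 2 degrees of freedom. No gene passed at an adjusted p of 0.1 in edgeR's quasi-likelihood test, 0% of 18637 genes at E17.5 and 0% of 19381 at P7, with 465 and 886 genes at an unadjusted p under 0.05 and no member among them. For Rgs4 the genotype difference in CB minus the mean of those in CX and HIP was -0.04 (SE 0.229, adjusted p = 0.962, edgeR) at E17.5 and 0.17 (SE 0.140, adjusted p = 0.830) at P7. At P35 the same quantity, which the choice of Rgs4 used, was 0.58 (SE 0.0859), ahead of Rgs10 (0.32, SE 0.0832), Rgs2 (0.28, SE 0.1003) and Rgs5 (0.21, SE 0.0706) and in the opposite direction to Rgs9 (-0.31, SE 0.158) and Rgs8 (-0.14, SE 0.0836).

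Genes around the family were examined in the same fits. None of the tested genes in 8 lists was called by genotype in any of the 9 datasets or by genotype and region in the 3 periods (edgeR's quasi-likelihood test): other RGS genes (13 listed), R7 partners (5), G alpha subunits (12), effectors such as Kcnj3 and Plcb4 (15), RhoGEFs with an RGS domain (3), the N-degron pathway (7), Gq-coupled receptors (9) and activity-regulated genes (8). In P35 CB the median log2 fold change was 0.04 for the 7 N-degron genes and -0.06 for the 9 Gq-coupled receptors, against 0.000936 over all genes. At an unadjusted p under 0.05 there were at most 4 genes of a list in a dataset (effectors in P35 HIP, where 1070 of all 17123 genes were) and at most 5 in the test by region (the N-degron genes at P35, where 3000 of all 19034 genes were). Ado, the dioxygenase that oxidises the N-terminal cysteine, was 109.7 CPM in WT and 120.3 CPM in HET mice in P35 CB, and Ate1, the arginyltransferase, 117 and 123 CPM, with Metap1 and Metap2 also higher in the HET mean. The means of the Ubr ligases went the other way, 120.4 and 114.1 CPM for Ubr1, 74.7 and 59.7 CPM for Ubr2 and 270.5 and 209.3 CPM for Ubr4. Between regions and periods of WT mice at most 1 of the 7 N-degron genes was called in a contrast (Metap2, which removes the initiator methionine, lower in CX than in CB at P7 and lower in CB at P35 than at P7).

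From E17.5 to P7 all 9 Gq-coupled receptors rose in CX, where 37.4% of all genes passed in either direction (median log2 change 3.06, all genes 0.0117), and all 9 in HIP, where 30.9% did (2.68, all genes -0.00459), and Htr2c and Adra1d were among those that rose in CB. At P35, 8 of the 9 were higher in CX than in CB, where 27.4% of all genes passed (median log2 difference over the 9 of 2.86, all genes -0.0355). Grm5, a metabotropic glutamate receptor, had 356 CPM in CX and 13.7 CPM in CB of WT mice. The 8 activity-regulated genes, among them Fos, Arc and Npas4, were all higher in CX than in HIP at P35, where 11.8% of all genes passed (median log2 difference 1.70, all genes -0.00556), and rose in CX from P7 to P35, where 21.9% did (3.23, all genes -0.0307). Of the 13 other RGS genes, 10 were tested between regions at P35, and against the same 27.4% of all genes 6 were higher in CX than in CB (Rgs11, Rgs12, Rgs13, Rgs17, Rgs19 and Rgs20) and Rgs3 lower. Rgs17 had 143.5 and 49.6 CPM, and Rgs3 23.6 and 66.9 CPM. Of the 12 G alpha subunits only Gnaz passed in that contrast, and of the 15 effectors 5 were higher in CX (Kcnj5, Plcb1, Plcb2, Adcy2 and Adcy5) and 3 lower (Plcb3, Plcb4 and Adcy1). None of the 3 RhoGEFs passed there. Rgs13 (0.285 CPM in CX and 0.012 CPM in CB) and Kcnj5 (0.44 and 0.187 CPM) had WT means under 1 CPM in both regions. Nothing is read from the calls of these genes.

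Marker scores of the cell types that individual members are known for were set against them across mice in 27 relations (Pearson and Spearman, permutation test with 100000 resamples, two-sided, Benjamini-Hochberg over the 27). Rgs8 and the Purkinje score in P7 CB gave the closest relation: r = 0.962 and rho = 0.972 over 12 mice, with a permutation p of 1e-05 (the smallest that this number of resamples can give) and an adjusted p of 0.00027. It was 0.963 with values centred within genotype and 0.941 without the 2 mice farthest from the median score. P7 mouse names also carry sets (C1, C2 and C4), and r was 0.931 with values centred within these sets and 0.925 within the 6 mice of C2. The lowest Rgs8 levels, 79.5 and 83.02 CPM in HET mice 2 and 1, went with scores of 6.93 and 7.14, and the highest, 259 and 224 CPM in HET mice 3 and 6, with 7.81 each. Granule cell markers had the same extremes, at 6.82 and 6.99 against 7.80 and 7.72. In E17.5 CB (r = -0.453, rho = -0.594) and P35 CB (r = -0.106, rho = 0.0303) the adjusted permutation p was at least 0.224. Centred within the E17.5 name sets, the E17.5 CB relation turned to 0.514.

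**Figure D5:**
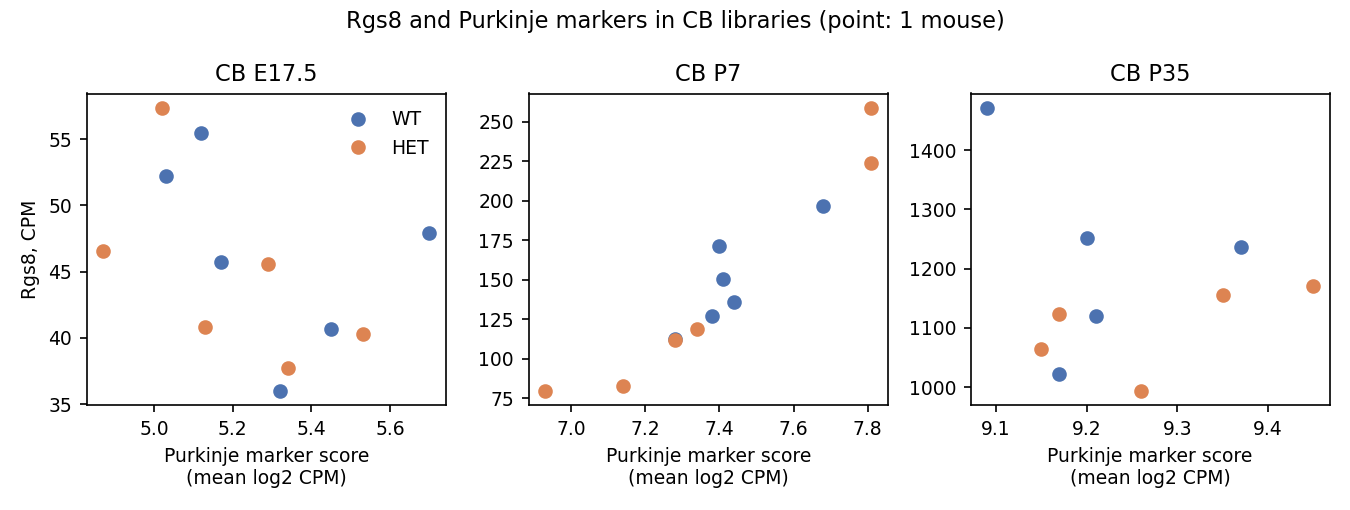
Rgs8 level (CPM) against the Purkinje marker score (mean log2 CPM of 7 markers) in CB libraries of each period, with WT in blue and HET in orange and axes of their own in each panel. The 12 P7 libraries rise together from 79.5 to 259 CPM, and no such order is seen among the E17.5 and P35 libraries.

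Rgs14 and the CA2 score in E17.5 HIP had r = 0.783 and rho = 0.811 over 12 mice (adjusted permutation p of 0.0271 and 0.0202), at Rgs14 levels under 1 CPM. The relation did not hold within the name sets: r was -0.200 after centring within S2, S3 and S4 and 0.488 in the 8 mice without S3, the S3 scores of 2.17 to 2.42 lying below all others. Rgs10 and the microglia score in P35 CB had r = 0.749 (adjusted permutation p of 0.0900) and rho = 0.867 (0.0202), and r = 0.212 within genotypes, the genotypes being the contrast on which both stood apart. Rgs5 and the mural score had r = 0.714 in E17.5 HIP (rho = 0.406, adjusted permutation p of 0.0859 and 0.458), which rested on 2 mice, without which r was 0.0692. The other relations had adjusted permutation p-values of 0.0867 or more, the lowest being that of Rgs10 with the microglia score in P35 HIP (rho = 0.77, r = 0.702 with an adjusted permutation p of 0.139).

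Finally, the genes whose pattern over the groups was most like that of Rgs4 were taken from 15212 genes with a mean of at least 1 CPM. Over the 9 WT group means of log2 CPM the closest 5 were Stk32c (r = 0.972), Zfp771 (0.963), Kcnf1 (0.962), Fam171a1 (0.959) and Pdk1 (0.957). Over the 9 HET group means the closest 5 included Stk32c (r = 0.970), Fbxl2 (0.962), Kcnf1 (0.959) and Tmem245 (0.957), so that Stk32c, a kinase, and Kcnf1, a potassium channel subunit, were in both lists. These correlations describe 9 groups that share mice between regions.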

How the data were processed

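Each of 3 regions from 36 mice gave 1 stranded, ribosomal-RNA-depleted RNA-seq library, 108 in all. The authors trimmed reads with Cutadapt 1.14, aligned them to GRCm38.p5 with STAR 2.5.3a and deposited expected counts per gene from RSEM 1.3 (Gencode M16); 5.76% of values were not whole, and counts were rounded here. Groups came from the labels. Genes were kept by edgeR's filter (minimum count 10, total 15), scaled by TMM and tested with edgeR 4.0.16 (R 4.3.3) by quasi-likelihood, with Benjamini-Hochberg adjustment over all genes (0.1). Genotype was fitted per dataset, regions with mouse as a block, and periods without. The fits were tested on simulated data. Permutation tests used numpy 2.4.6, with ranks from scipy 1.17.1. DESeq2 1.42.0, RUVs with 3 factors and other alternatives are in the closing section.

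All 10 members were named in each comparison, with Cul3 and the 5 genes most like Rgs4 per genotype. Of the lists, counts were given. Results for some genes of the lists, and for 1 of those most like Rgs4, are not reported here. Receptors, effectors, other RGS genes and N-degron genes printed with values were picked after these were seen. The members and lists were chosen with earlier results of these data known. P-values of the genotype and period fits rest on the spread between mice. Those of the fits with mouse as a block rest on the spread left within mice. Permutation p-values come from shuffling values across mice. Replicate numbers were taken to pair samples of the 2 genotypes where every correlation of same-numbered deviations was over 0.1. Only E17.5 CX met this, with 6 correlations of 0.113 to 0.759. In E17.5 HIP and CB the medians were 0.335 and 0.292, against -0.0297 and -0.0168 for other pairs. In P7 HIP the median was -0.0641 against 0.00184. At E17.5 and P7 same-numbered mice of the 2 genotypes share the set in their names in every region. The main genotype fits had no block.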

Additional observations from a re-analysis of the deposited data

Results flagged for a closer look

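In 180 groups of 5 or 6 libraries (10 members in 9 combinations of period and region and 2 genotypes), 10 had a library far from the others by Dixon's test, which chance gives in about 1 of 20 groups. For Rgs2 these were HET mouse 2 in P7 CB at 22.1 CPM (others 18.2 to 19.5) and HET mouse 1 in P35 HIP at 27.3 CPM (others 32.7 to 34.8). For Rgs5 it was HET mouse 2 in P35 CB at 129.0 CPM (others 144 to 149), and for Rgs7 HET mouse 4 in P35 CX at 77.1 CPM (others 80.6 to 82.0). Rgs8 stood at 32 CPM in HET mouse 1 of E17.5 CX (others 11.4 to 18.2). Rgs9 stood at 13.3 CPM in WT mouse 5 of P7 HIP (others 15.9 to 17.3) and at 2.99 CPM in WT mouse 3 of P35 CB (others 1.60 to 1.75). Rgs10 was 20.1 CPM in WT mouse 2 of P7 CX (others 11.8 to 14.9) and Rgs16 was 5.94 CPM in WT mouse 4 of P7 CB (others 3.65 to 4.51). Rgs14 was 0.306 CPM in HET mouse 3 of E17.5 CB (others 0.0267 to 0.119), a matter of 12 reads.

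In 10 cases every WT library of the later period lay above the earlier ones in one region and below them in another, and these differences between regions were not tested. Such cases were not counted over all genes, so nothing is read from their number. From E17.5 to P7 the log2 change in CX was higher than that in CB by 5.11 for Rgs4, 2.81 for Rgs10, 1.79 for Rgs2 and 1.38 for Rgs6. Over the same interval that in HIP was higher than that in CB by 3.92 for Rgs4 and 2.01 for Rgs10, and that in CX was higher than that in HIP by 1.52 for Rgs6. From P7 to P35 it was higher in CX than in CB by 1.98 for Rgs4, in CB than in HIP by 1.79 for Rgs6 and in HIP than in CB by 0.81 for Rgs10. That of Rgs4 rests on the P35 values that chose it and is a description.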

How the results depend on the processing

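Directions of small, uncalled differences changed most. With RUVs the log2 fold change of Rgs4 by genotype, E17.5 HIP, turned to 0.0149. Without the 4 S3 mice, an alternative chosen after seeing the data, it turned to 0.13 in E17.5 CB, and the Rgs4 genotype effect, CB minus mean of CX and HIP, E17.5, turned to 0.0897. Leaving out mice one at a time gave -0.222 to 0.00444 in E17.5 HIP, -0.0836 to 0.0231 in E17.5 CB, -0.0892 to 0.0283 in P7 CX, -0.0107 to 0.119 in P7 CB, and -0.104 to 0.0305 for the regional difference at E17.5. In P35 CB the Rgs4 value was 0.36 to 0.47 over the alternatives and 0.404 to 0.506 leaving out mice. The P35 counts of members by genotype and by genotype and region rest on the contrast that chose Rgs4, so they are given as a description and say nothing of its stability. In P35 CB 1 member passed with DESeq2, the likelihood ratio test and RUVs against 0, and 0 to 1 leaving out mice (1 without HET mouse 2). For genotype by region at P35 the count was 1 (Rgs4), and 2 with DESeq2. With the 2 mice under the genotypes of the study's table, against which their Cul3 levels went, it was 0 and the Rgs4 difference 0.45. The count was 0 to 1 leaving out mice, and 0 without any 1 of 8 of the 10 mice. Between CX and HIP at E17.5 it was 0, against 1 with upper-quartile scaling, 1 without a filter, 2 with DESeq2, 2 without the S3 mice and 0 to 1 leaving out mice. The cause of these changes was not tested.

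With the replicate number as a block, 0 members were called by genotype in every dataset. In E17.5 CX, the dataset that met the rule for pairing, the Rgs4 value was 0.11 and 55 genes were called against 1. Between CX and HIP at E17.5, 1 member was called with no replicate block, and the block moved no other member count by over 1.5 times. Among all genes, 1 was called by genotype in each dataset, and at P35 CB 200 with DESeq2, 150 with the likelihood ratio test and 63 with RUVs. RUVs called 11 to 190 in the other datasets that moved. At P35 277 were called by region with DESeq2, 74 with the likelihood ratio test and 10 with the 2 mice under their labels, against 1. Without a filter, all genes past 2-fold between periods, CX P7 to P35, numbered 6266 against 4086, and all genes past 2-fold between periods, CB E17.5 to P7, numbered 6024 against 3749.

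Some relations of members to marker scores changed sign. Centred within genotype, Rgs5 in P7 CX (-0.0113), Rgs8 in P35 CB (0.041) and Rgs14 in P35 HIP (0.0371) did. Without 2 mice it was Rgs10 in P7 CB (-0.104, from 0.419), Rgs9 in P7 CX (-0.153) and Rgs14 in P35 HIP (0.00595), and by Spearman Rgs9 in P7 CX (-0.119) and Rgs8 in P35 CB (0.0303). Centred within the sets in the mouse names, added after seeing the data, it was Rgs8 in E17.5 CB (0.514, from -0.453), Rgs10 in E17.5 HIP (-0.174, from 0.394), Rgs14 in E17.5 HIP (-0.200, from 0.783) and Rgs5 in P7 CB (-0.174, from 0.151). Depth limits Rgs14 in CB and at E17.5, where libraries held 0 to 27 of its reads.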

Other observations

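The 2 mice whose genotype is in conflict were kept out of the main comparisons and entered only some of the alternatives above. The mouse labelled WT had Rgs4 levels of 790.4 CPM in CX, 199 CPM in HIP and 19.6 CPM in CB, with Cul3 at 196, 203 and 227 CPM. The mouse labelled HET had Rgs4 levels of 731 CPM, 205 CPM and 22.3 CPM, with Cul3 at 95.7, 99.0 and 121 CPM. In the libraries used, Cul3 was 161 to 218 CPM in WT and 85.5 to 125 CPM in HET mice. In all 3 regions the Cul3 levels of both mice thus went with the sample labels and not with the table of the study.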
